A study of Mus musculus with 8 samples.

Results

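Metallothioneins are small, cysteine-rich proteins that bind zinc, copper and cadmium. Mt1 and Mt2 are made in most tissues and are induced by zinc, glucocorticoids, inflammatory signals and oxidants. Mt3 is known mainly from the brain, and Mtf1 encodes a zinc-sensing transcription factor that binds metal response elements in metallothionein promoters. These 4 genes, Mt1, Mt2, Mt3 and Mtf1, were taken as the probe sets that the array annotation assigns to exactly 1 of these symbols. Each gene had 1 probe set, so the set held 4 of the 10833 probe sets with 1 symbol. They were selected on the signals of these same 8 arrays, subconfluent against confluent, so their differences between the cultures are given as a description and carry no test.

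RNA of cultured mouse aortic endothelial cells, as the labels name them, was measured on 8 single-colour Affymetrix oligonucleotide arrays, 1 sample per array. On 4 arrays the cells were subconfluent, at less than 50% confluency, and on 4 they formed a mature confluent monolayer, with equal cell numbers in all samples. The labels give no strain, age, passage, genotype or treatment. Samples are numbered 1 to 4 in each group as experiments. Whether each number stands for a separate culture is not stated, so p-values measure only the spread between these samples, which may be technical. The values are signals, 1 linear number per probe set, which the authors brought to a common target of 500.

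The defining endothelial markers Pecam1, Cdh5, Kdr and Tek averaged under 200 in both groups, so these did not match the labelled cell type. Cdh5, which encodes the junction protein VE-cadherin, had a signal of 12.3 ± 5.18 in subconfluent and 13.6 ± 10.6 in confluent cells (SD, n = 4 each). Tek, an angiopoietin receptor gene, had 6.88 ± 3.02 in subconfluent and 15.6 ± 8.93 in confluent cells. Pecam1 averaged 125 ± 24.0 in subconfluent and 97.5 ± 51.2 in confluent cells, and Kdr 108 ± 86.3 and 75.8 ± 80.0. Kdr reached 203.6 on subconfluent replicate 2 and 194.5 on confluent replicate 2. Of 21 endothelial markers on the array 5 reached a mean signal of 200 (Flt4, Eng, Cd34, Ece1 and Procr, named after their values were seen), and 0 of these passed limma's test, also at an unadjusted p under 0.05. With replicate pairs as a block, Procr was called higher (adjusted p = 0.0320) and Flt4 lower (0.0217). The brightest of the 5 were Cd34, at 1545 ± 677 in subconfluent and 1340 ± 718 in confluent cells, and Eng, at 781 ± 78.4 and 883 ± 61.8. Of 17 fibroblast and pericyte markers 10 reached a mean signal of 200 and 4 fell (6 with pairs as a block). The share that reached it was 58.8%, against 23.8% of the endothelial markers and 56.6% of all genes on the array. Of all probe sets tested 4.06% were called lower, or 11.3% with pairs as a block. Vim, also on the fibroblast list, stayed under 200, at 114 ± 39.8 in subconfluent and 136 ± 47.0 in confluent cells. A low signal does not show that a transcript is absent. The decorin gene Dcn, of a matrix proteoglycan, stood at 3476 ± 799 in subconfluent and 14708 ± 4485 in confluent cells. No marker of either list was at 0 on all arrays. The arrays' scale factors, which are larger for dimmer arrays, ran from 3.05 to 13.3 in subconfluent and from 3.56 to 8.99 in confluent samples.

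The promoters of Mt1, Mt2 and Mt3 are shown because these neighbouring genes differed in how far they moved between the cultures. The sequences are the 250 bases before the start that RefSeq's promoter table gives for each gene (GRCm38.p6, plus strand), at chr8:94178839-94179088 for Mt1, chr8:94172368-94172617 for Mt2 and chr8:94152357-94152606 for Mt3. Capitals mark matches to the core of the metal response element, searched as TGCACNC and TGCGCNC on both strands.
Mt1: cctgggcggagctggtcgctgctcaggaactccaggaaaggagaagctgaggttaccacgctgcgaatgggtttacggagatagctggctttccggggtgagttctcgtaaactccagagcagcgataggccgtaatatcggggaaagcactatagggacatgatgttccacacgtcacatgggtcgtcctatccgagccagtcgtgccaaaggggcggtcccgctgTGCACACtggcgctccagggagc
Mt2: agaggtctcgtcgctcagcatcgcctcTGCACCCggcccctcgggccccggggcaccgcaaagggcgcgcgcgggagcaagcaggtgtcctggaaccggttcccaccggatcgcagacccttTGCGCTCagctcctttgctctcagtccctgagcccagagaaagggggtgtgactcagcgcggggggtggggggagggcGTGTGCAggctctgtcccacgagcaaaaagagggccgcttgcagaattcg
Mt3: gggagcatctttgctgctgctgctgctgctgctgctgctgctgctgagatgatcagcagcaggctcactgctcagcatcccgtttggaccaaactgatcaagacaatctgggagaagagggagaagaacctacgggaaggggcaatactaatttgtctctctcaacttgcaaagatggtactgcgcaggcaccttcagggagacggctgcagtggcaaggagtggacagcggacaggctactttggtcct

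The Mt1 stretch held 1 match, 23 bases before the start, and 2 more lay in the first 27 bases after it, tcTGCACTCcgcccgaaaagTGCGCTC. The Mt2 stretch held 3, 223, 128 and 50 bases before the start, the last of them on the minus strand. A further match on the minus strand began at base 5 after the start. The Mt3 stretch held 0 and carried 11 CTG repeats in a row, with 1 match at base 28 after the start. The Mtf1 promoter on chromosome 4 held 0 matches, also after the start. Of 32851 RefSeq promoter stretches of 250 bases 21.4% held at least 1 match and 1.26% held 3 or more. The antioxidant response element core, TGACNNNGC, matched once, 79 bases before the start of Mt2, apart from the metal response element matches. It was in 10.2% of all stretches. A match is a description of letters and not a shown binding site. The start is the 1 that the table lists per gene, and another start may be in use in these cells. The start listed for Mt1 may not be its main one. Letters beyond base 50 after the start were not searched, so further matches of either core may lie just outside. The counts therefore do not show that Mt1 has fewer matches than Mt2.

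Mt1 and Mt2 were lower in subconfluent cells, and each gene's 4 subconfluent values lay below its 4 confluent values. Mt1 had signals of 7971, 6226, 13912 and 11093 on subconfluent replicates 1 to 4, against 16227, 19075, 25893 and 22329 on confluent replicates 1 to 4. The highest subconfluent array, replicate 3, stayed under the lowest confluent array, replicate 1. Mt1 averaged 9801 ± 3401 in subconfluent and 20881 ± 4169 in confluent cells (SD, n = 4 each), a log2 difference of -1.13 or 2.19-fold. All folds here are of log2(signal + 50) values, which understate changes of dim probe sets.

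Mt2 had signals of 6519, 3020, 11988 and 9535 on subconfluent replicates 1 to 4, against 14983, 16164, 25508 and 24330 on confluent replicates 1 to 4. Subconfluent replicate 2 was the lowest array, and the groups again left a gap between replicate 3 of the subconfluent and replicate 1 of the confluent cells. The means were 7765 ± 3874 in subconfluent and 20246 ± 5438 in confluent cells (SD, n = 4 each), a log2 difference of -1.51 or 2.84-fold. In bulk RNA, fewer cells carrying a transcript and less of it per cell cannot be told apart.

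Groups without overlap and lower in subconfluent cells were found for 8.54% of the 6007 probe sets that reached a mean signal of 200, for 8.34% the groups did not overlap and were higher, 16.9% in all. Of the 4 genes 2 did not overlap, both of them lower. By limma's adjusted p, 4.06% of probe sets were lower and 2.75% higher, 6.81% in all (with pairs as a block 11.3% lower, 9.94% higher and 21.2% in all). A log2 difference at or below that of Mt1 was reached by 2.38% of probe sets, and one at or below that of Mt2 by 1.05%. The genes were picked with these values known, so the shares only place them on the scale of the array.

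Mt3 was not separated between the cultures. Its signals were 877, 963, 1269 and 818 on subconfluent replicates 1 to 4, against 668, 1257, 1316 and 1194 on confluent replicates 1 to 4. The lowest and the highest value both came from confluent arrays, and the ranges overlapped over the whole subconfluent spread. The means were 981 ± 201 in subconfluent and 1109 ± 298 in confluent cells (SD, n = 4 each), a log2 difference of -0.14. The pooled SD within groups, 0.36 on the log2 scale, was larger than that difference.

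Mtf1, the regulator, was dim on every array and its mean of 131 over the 8 arrays lay under the minimum of 200, so it was in no test. It had signals of 211, 77.8, 200.2 and 157 on subconfluent replicates 1 to 4, against 52.0, 136, 149.9 and 60.8 on confluent replicates 1 to 4. Subconfluent replicate 2 was below 2 of the confluent arrays, and the other subconfluent arrays were above all of them. The means were 161 ± 60.4 in subconfluent and 99.7 ± 50.4 in confluent cells (SD, n = 4 each), a log2 difference of 0.51 with a pooled SD of 0.49. The remaining gene of the chromosome 8 cluster, Mt4, which is named here after its values were seen, averaged 23.0 ± 8.88 in subconfluent and 22.6 ± 10.7 in confluent cells.

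**Figure D1:**
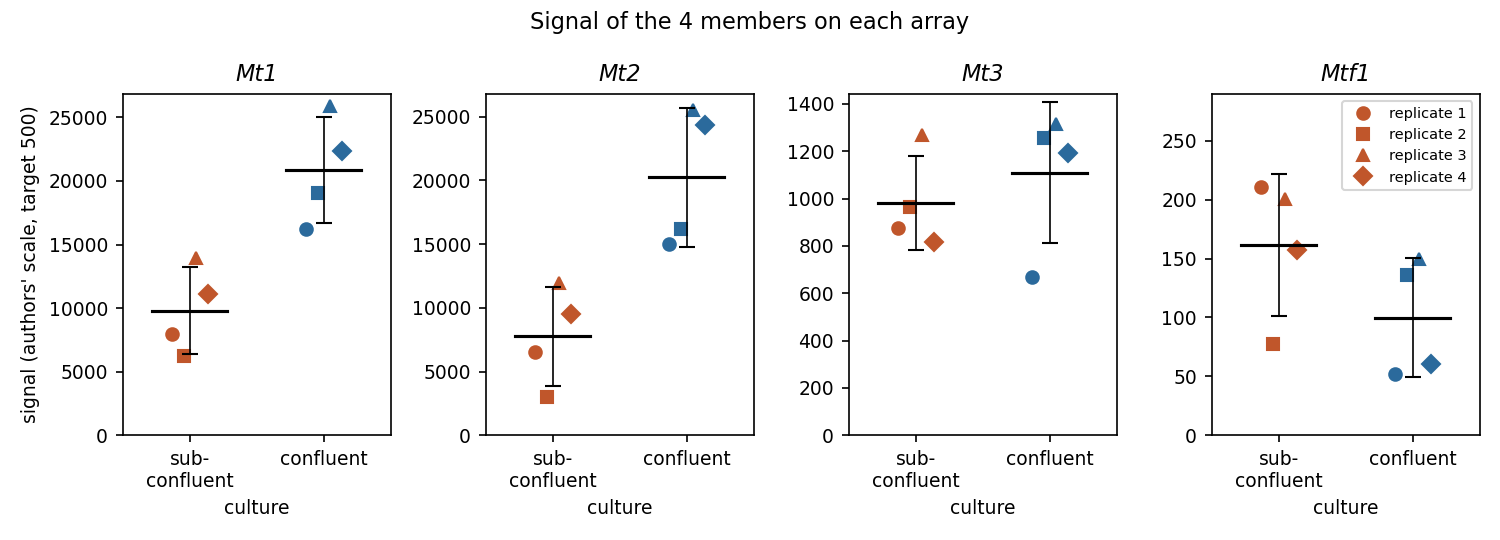
Signal of Mt1, Mt2, Mt3 and Mtf1 on each array (linear axis from 0, a separate scale per gene). Symbols give the replicate number, horizontal bars the mean and whiskers the SD of 4 arrays. The subconfluent values of Mt1 (6226 to 13912) and Mt2 (3020 to 11988) lie below all confluent values, while those of Mt3 and Mtf1 overlap.

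Arrays with the same number deviated together, as described in the processing section, so differences were also taken within the numbered pairs. Mt1 was lower in 4 of 4 pairs, with differences of -1.02, -1.61, -0.89 and -1.01 on the log2 scale in pairs 1 to 4. Mt2 was lower in 4 of 4 pairs as well, with -1.19, -2.40, -1.09 and -1.35. Pair 2 gave the largest difference of both genes, and Mt2 differed by more than Mt1 in each of the 4 pairs. Among all probe sets tested 22.1% were lower in all 4 pairs. As the groups of Mt1 and of Mt2 did not overlap, any pairing of these arrays had to give 4 of 4. The count therefore adds nothing to that, and only the sizes within pairs are described.

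For Mt3 the pairs gave 0.37, -0.37, -0.05 and -0.52, lower in 3 of 4. For Mtf1 they gave 1.35, -0.54, 0.32 and 0.90, higher in 3 of 4, with pair 2 opposite to the rest. Pair 2 also held the arrays with the highest scale factors, 13.3 in subconfluent and 8.99 in confluent samples. Without subconfluent replicate 2 the difference was -0.94 for Mt1, -1.11 for Mt2, -0.14 for Mt3 and 0.73 for Mtf1.

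**Figure D2:**
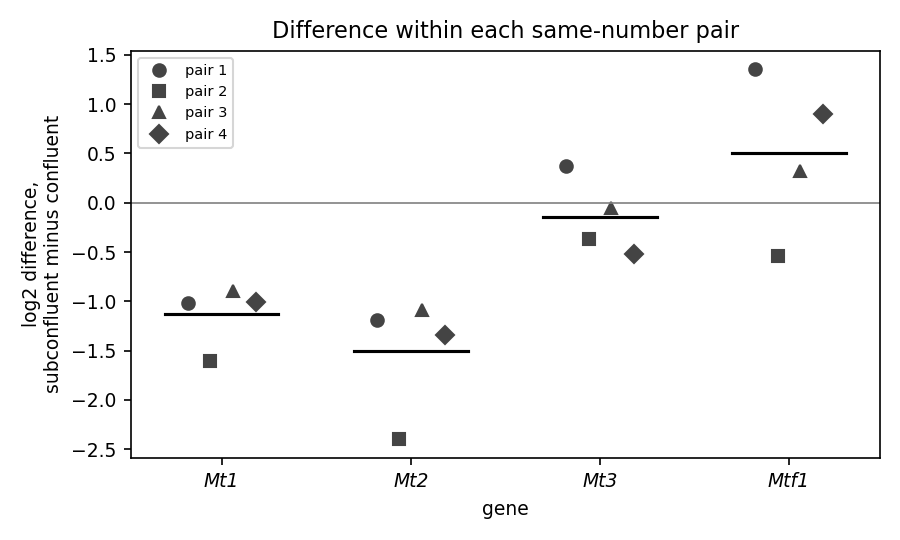
Log2 difference, subconfluent minus confluent, within each of the 4 same-number pairs for each gene (points), with the mean of the pairs (bars) and a line at 0. All Mt1 points (-1.61 to -0.89) and all Mt2 points (-2.40 to -1.09) lie below 0, and Mt3 and Mtf1 have points on both sides.

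The arrays came from 4 chip lots. In lot A, with subconfluent replicate 1 against confluent replicate 1, the differences were -1.02 for Mt1 and -1.19 for Mt2. In lot C, with subconfluent replicates 3 and 4 against confluent replicate 3, they were -1.06 and -1.25. The other lots held arrays of 1 group each. With the lot as a block the fit gave -1.04 for Mt1 and -1.23 for Mt2. A fit with this block takes its difference only from lots A and C, so it repeats the values just given. For Mt3 the values were 0.37 in lot A and -0.35 in lot C, and for Mtf1 1.35 and 0.19.

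The level of Mt1 and Mt2 also varied within each culture state, and in the same order of arrays. Both genes ranked the subconfluent replicates 3, 4, 1, 2 from high to low and the confluent replicates 3, 4, 2, 1. The highest subconfluent signal of Mt1 was 2.23 times the lowest, and of Mt2 3.97 times, against 1.60 and 1.70 times among the confluent arrays. The pooled SD within groups was 0.41 for Mt1 and 0.67 for Mt2 on the log2 scale, against a median of 0.28 over all probe sets tested. A spread at least as wide was found in 19.6% of probe sets for Mt1 and 3.93% for Mt2. Without subconfluent replicate 2, in a comparison chosen after seeing the data, the subconfluent ratio of highest to lowest was 1.75 for Mt1 and 1.84 for Mt2. The pooled SD was then 0.34 and 0.41, and 31.8% and 18.4% of probe sets were at least as wide.

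The signal of Mt2 relative to that of Mt1 was 0.818, 0.485, 0.862 and 0.860 on subconfluent replicates 1 to 4, against 0.923, 0.847, 0.985 and 1.09 on confluent replicates 1 to 4. Signals of different probe sets are not on a common scale, so this ratio is read only across arrays. Subconfluent replicate 2 stood lowest, and the ranges overlapped between 0.847 and 0.862.

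**Figure D3:**
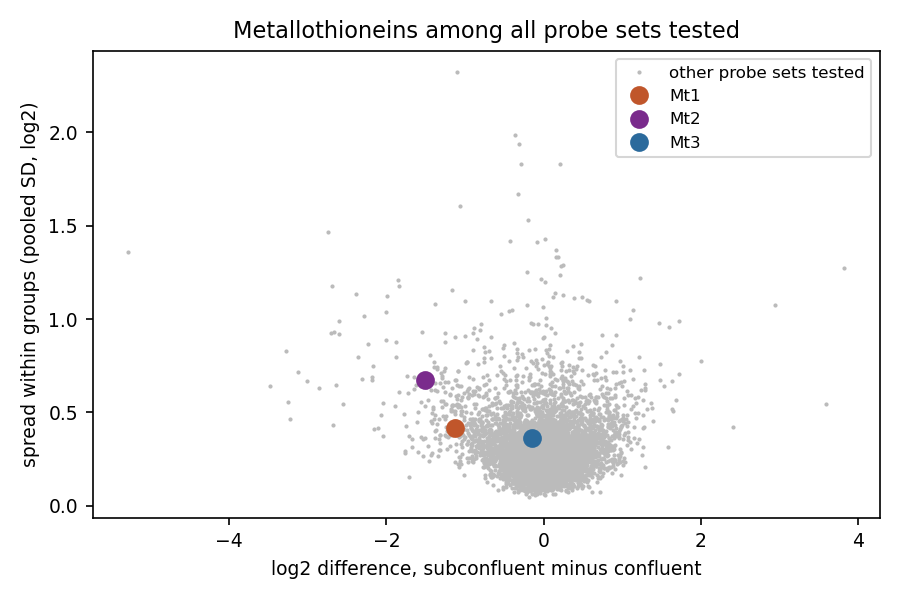
Log2 difference, subconfluent minus confluent (x axis), against the pooled SD within groups on the log2 scale (y axis) for the 6007 probe sets tested. Mt2 (-1.51, SD 0.67) lies further left and higher than Mt1 (-1.13, SD 0.41). Mt3 (-0.14, SD 0.36) lies near 0 on the x axis and above the median SD of 0.28, with 28.7% of probe sets at least as wide.

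On chromosome 8 the RefSeq gene table places Mt4, Mt3, Mt2 and Mt1 next to each other among protein-coding genes, with Nup93, a nuclear pore gene, next to Mt1. Nup93 had signals of 712 ± 45.7 in subconfluent and 484 ± 125 in confluent cells (SD, n = 4 each), a log2 difference of 0.54 (limma adjusted p = 0.101, with pairs as a block 0.0605). It was named after its value was seen. The 3 metallothionein genes past the minimum thus ranged from -1.51 to -0.14, beside a neighbour with a positive difference that did not pass.

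Likeness to Mt1 and Mt2 was measured as the root mean square difference of log2(signal + 50) over the 8 arrays, each profile centred on its own mean. Among 5442 other probe sets with 1 symbol, the nearest to Mt1 were the desaturase gene Scd1 (0.13), the docking protein gene Gab1 (0.19), Sipa1l2 (0.20), Cd47 (0.23), which encodes an integrin-associated surface protein, and Tbc1d23 (0.25). Mt2 ranked 28 (0.32). Profiles centred on their own mean keep the difference between the cultures by which Mt1 and Mt2 were chosen. Centred on group means, Mt2 ranked 409 from Mt1 and Mt1 ranked 10 from Mt2, both at 0.26. With each profile again centred on its own 8-array mean, the nearest to Mt2 was Pros1 (0.29), which encodes the anticoagulant protein S. Next came Mt1 (0.32), Cnpy2 (0.32), the interferon-induced membrane protein gene Ifitm3 (0.33) and Tmem150a (0.36). By the same centring Mt3 ranked 1094 from Mt1 and 1384 from Mt2, at 0.59 and 0.87. The probe set of Scd1 is one that the array design marks as shared within a group, its brighter probe set had a log2 difference of -0.90 against -1.03, and the other probe set of Gab1 stood at -0.07.

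Zinc and copper transport genes, which set the supply of the metals that metallothioneins bind, showed little difference between the cultures. Of 34 listed genes 18 were on the array and 13 reached the minimum. Slc39a6, a zinc importer, was the 1 gene that rose, and 0 fell (2 of 13 at an unadjusted p under 0.05). The median log2 difference was -0.13, against 0.01 over all probe sets tested, of which 6.81% were called.

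Slc39a6 had signals of 1186, 1216, 905 and 1192 on subconfluent replicates 1 to 4, against 701, 730, 598 and 774 on confluent replicates 1 to 4. The groups did not overlap, and replicate 3 was the lowest in both. The log2 difference was 0.64 ± 0.16 (SE, limma adjusted p = 0.0362, with pairs as a block 0.00893). It did not pass when confluent replicate 1, 3 or 4 or subconfluent replicate 1, 2 or 4 was left out, with adjusted p up to 0.0966. Atp7a, a copper-exporting ATPase, stood at -0.45 (limma adjusted p = 0.164). The zinc transporter genes Slc39a4 and Slc30a9 stood at -0.39 and -0.38 (0.258 and 0.322).

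The MTF1 targets other than metallothioneins, genes known to respond to this factor in mouse or human cells, did not include a gene past the test with all arrays and no block. Of 9 on the array 5 reached the minimum, 0 passed limma's test and 1 had an unadjusted p under 0.05, with a median log2 difference of 0.21. Over all probe sets 6.81% passed, so 0 of 5 does not set these genes apart. Selenoh, a selenoprotein gene, averaged 1956 ± 327 in subconfluent and 1167 ± 758 in confluent cells (SD, n = 4 each), a log2 difference of 0.90 (limma adjusted p = 0.135). It passed with the chip lot as a block (1.48, adjusted p = 0.0315) and without confluent replicate 2 (1.27, 0.0160). Gclc, a subunit of the enzyme that starts glutathione synthesis, stood at 0.24 (0.385), Ndrg1 at 0.21 (0.602) and Csrp1 at 0.17 (0.692), which turned to -0.04 with the lot as a block and -0.07 without subconfluent replicate 2. The zinc exporter gene Slc30a1, named beyond the rule as the best known of these targets, was under the minimum, at 69.4 ± 35.7 in subconfluent and 83.9 ± 37.6 in confluent cells.

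Other genes tied to metallothionein transcription were examined as a list of regulators. Of 12 on the array 10 reached the minimum, 0 passed limma's test (2 at an unadjusted p under 0.05), and the median was -0.08. Over all probe sets tested 6.81% passed. Stat3, which relays interleukin-6 signals, stood at -0.53 (adjusted p = 0.166, with pairs as a block 0.0327). Hif1a, the hypoxia-regulated factor, stood at -0.60 (0.188, with pairs as a block 0.0102). Prkcd, a protein kinase C gene, was -0.30 (0.270), and Usf1, a factor that binds the Mt1 promoter in mouse cells, was 0.43 (0.346). With pairs as a block 2 of the 10 were called lower, against 11.3% of all probe sets.

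Glucocorticoid targets stood on both sides of 0. Of 11 on the array 8 reached the minimum, 3 with a positive and 5 with a negative difference. By limma's test 1 rose and 0 fell (2 at an unadjusted p under 0.05), against 2.75% higher and 4.06% lower of all probe sets. The median was -0.18. The gene that rose was Sgk1, a kinase gene, at 2965 ± 622 in subconfluent and 1403 ± 344 in confluent cells (SD, n = 4 each), a log2 difference of 1.06 (limma adjusted p = 0.0195). Its call ended without confluent replicate 3 or subconfluent replicate 1 or 4 (adjusted p = 0.0603, 0.0501 and 0.0585). The transcription factor genes Klf9 and Cebpd stood at -0.454 and -0.997 (0.104 and 0.316, with pairs as a block 0.0426 and 0.0487), and Errfi1 at 0.42 (0.322). With pairs as a block 2 of the 8 were called lower, against 11.3% of all probe sets.

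Acute-phase and STAT3 targets held the largest differences among these lists. Of 23 on the array 16 reached the minimum, and the median was -0.81. At an unadjusted p under 0.05 there were 8, all lower. With pairs as a block 9 fell, against 11.3% of all probe sets. By limma's test without a block 5 fell and 0 rose, against 4.06% lower of all probe sets. The 5 were Saa3, Hp, Serpina3n, Cp and Saa2, genes of secreted acute-phase proteins, at -5.28, -3.25, -3.23, -2.36 and -1.12 (limma adjusted p = 0.00362, 0.000664, 0.000534, 0.0162 and 0.0179). Saa2 lost its call without confluent replicate 3 (adjusted p = 0.0549), and its probe set can detect related genes. Saa3, Cp and Saa2 averaged 196, 119 and 148 in subconfluent cells, so they reached the minimum only through the confluent arrays. The summed signal of the list ran from 20194 to 32879 on the subconfluent and from 35040 to 64857 on the confluent arrays. It was lowest on subconfluent replicate 2, the array with the lowest Mt1 and Mt2. Among the confluent arrays it was highest on replicate 1, where Mt1 and Mt2 were lowest.

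NRF2 targets, the oxidant defence genes, moved in both directions. Of 22 on the array 19 reached the minimum, 3 rose and 3 fell, against 2.75% higher and 4.06% lower of all probe sets. The median was 0.24. Nqo1, a quinone reductase gene, stood at 1.29, Txnrd1, a thioredoxin reductase gene, at 1.07, and Gclm, the other subunit of the glutathione-synthesis enzyme, at 0.88 (limma adjusted p = 0.00449, 0.0253 and 0.0308). Ephx1, an epoxide hydrolase gene, stood at -1.39, Gstm1, a glutathione transferase gene, at -1.31, and Sqstm1, an autophagy adaptor gene, at -1.05 (0.0183, 0.00629 and 0.0293). The other probe set of Gstm1 had the opposite sign, 0.10 (adjusted p = 0.855). Nqo1 averaged 146 in confluent cells and reached the minimum only through the subconfluent arrays. Txnrd1, Gclm, Ephx1 and Sqstm1 failed the test in some fits that omitted a single array, which could be any of the 8 except confluent replicate 2 (highest adjusted p 0.0773). Over the 8 fits that omit 1 array each, the counts ran from 1 to 4 higher and from 1 to 3 lower.

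Iron handling genes were mixed as well. Of 14 on the array 9 reached the minimum, with a median of -0.16. Of these 2 fell and 0 rose (3 at an unadjusted p under 0.05), against 4.06% lower and 2.75% higher of all probe sets. Those that fell were Cp, the copper-carrying ferroxidase ceruloplasmin, at -2.36, and Hfe, an iron-sensing gene, at -1.33 (limma adjusted p = 0.0162 and 0.0101). Both averaged under 200 in subconfluent cells (119 and 126), so they reached the minimum only through the confluent arrays. The transferrin receptor gene Tfrc stood at 0.80 (0.129, with pairs as a block 0.00580) and the ferritin gene Fth1 at -0.16 (0.502), with the opposite sign, 0.11, in its other probe set.

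**Figure D4:**
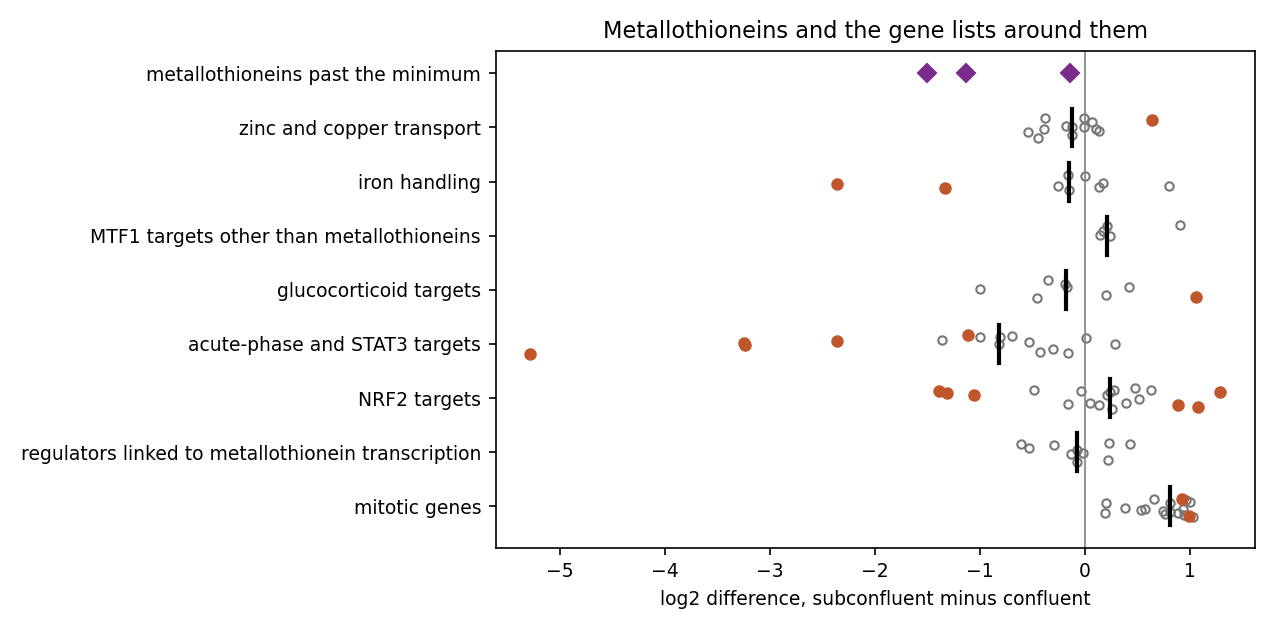
Log2 difference, subconfluent minus confluent (x axis), of Mt1, Mt2 and Mt3 (diamonds, top row) and of the tested genes of 8 lists (circles, jittered vertically), with the list median as a bar. Filled circles passed limma's test at an adjusted p of 0.05. The MTF1 target list, of 5 tested genes, has a median of 0.21 and no filled circle, and 6.81% of all probe sets were called. Mt1 and Mt2, chosen on this difference, lie at -1.13 and -1.51.

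Proliferation and fibroblast markers moved between the same groups of arrays, and their part in the metallothionein values was not tested. All 18 mitotic genes on the array reached the minimum, and 14 had an unadjusted p under 0.05, all higher. With pairs as a block 11 rose, against 9.94% of all probe sets. Without the block 2 rose, Birc5 (0.99) and Cdc20 (0.92), and 0 fell, against 2.75% higher of all probe sets. Their limma adjusted p was 0.0444 for both, and at least 1 of them failed the test whenever an array other than confluent replicate 2 was omitted (highest adjusted p 0.111). Over all 8 such fits the count ran from 0 to 10. Cdk1, the main mitotic kinase gene, and Bub1, a checkpoint kinase gene, stood at 0.96 and 1.00 (0.0532 and 0.0550). With pairs as a block their adjusted p was 0.0128 and 0.0249. The summed mitotic signal ran from 35289 to 38713 on the subconfluent arrays and from 11922 to 30651 on the confluent arrays. Among the confluent arrays it was lowest on replicate 1, which also had the lowest Mt1 and Mt2 of its group. It was highest on confluent replicate 2, where Mt1 and Mt2 were above those of replicate 1 only. Among the subconfluent arrays it was highest on replicate 2, where Mt1 and Mt2 were lowest. By the median log2 value of these genes, relative to the confluent mean, subconfluent replicate 2 was instead the lowest of its group (0.72).

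The summed signal of the 17 fibroblast and pericyte markers ran from 35500 to 53493 on the subconfluent and from 63971 to 94256 on the confluent arrays. Within the groups its order differed from that of Mt1 and Mt2. It was highest on subconfluent replicate 2 and confluent replicate 1, where Mt1 and Mt2 were lowest. The sum is weighted to the brightest genes. By the median log2 value of the list's genes past the minimum, relative to the confluent mean, subconfluent replicate 1 was highest (-0.49). Subconfluent replicate 2 stood at -0.77 by that median, and confluent replicate 1 was again the highest of its group (0.42). The collagen genes Col1a2 and Col3a1 fell with log2 differences of -1.04 and -1.31, Dcn with -2.04 (limma adjusted p = 0.0163, 0.0356 and 0.00135), and Col1a1 stood at -0.39 (0.280, or 0.0221 with pairs as a block). The other gene of the list that fell, named after its value was seen, was the proteoglycan gene Lum (-2.70, adjusted p = 0.0317). Lum averaged 153 in subconfluent cells and reached the minimum only through the confluent arrays. Without 1 array from 1 to 4 of the list's genes were called lower. Of 9 smooth muscle markers 5 reached the minimum and 1 fell, the myosin kinase gene Mylk (-1.84, limma adjusted p = 0.0163). Lower calls without a block made up 4.06% of all probe sets. With pairs as a block 2 of the 5 were called higher and 1 lower, against 9.94% and 11.3% of all probe sets. Of the 11 macrophage and the 11 epithelial and mesothelial markers 2 each reached the minimum and 0 passed limma's test. In each list 1 had an unadjusted p under 0.05, Cd14 at -0.70 and Upk3b at -0.85. With pairs as a block both were called lower (adjusted p = 0.0228 and 0.0271). Mylk, Cd14 and Upk3b were named after their values were seen.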

How the data were processed

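Signals of 12488 probe sets on 8 arrays were used as deposited. The authors made each signal with the Affymetrix statistical algorithm and scaled it to a target of 500, per the labels, with no further normalization here. The software version is not given in the sources used here, and detection calls were not used. After 66 controls were left out, 10833 probe sets had 1 gene symbol and 396 several in the platform's annotation. The gene identifier of 10817 was in the RefSeq gene table, and 0 symbols changed. Positions come from RefSeq's promoter table. Its windows reach from 250 bases before to 50 after a start, and all 4 genes matched.

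The members, lists and tests were chosen with earlier results of these data known. The 6007 probe sets whose signal averaged 200 or more were tested as log2(signal + 50) with limma 3.58.1 in R 4.3.3 (lmFit, eBayes with trend, two-sided, Benjamini-Hochberg over all kept probe sets, threshold 0.05). No block was used in the reported fit. The minimum is on the mean of all 8 arrays, so some called genes reached it only through the culture where they were high. Summaries and plots used Python 3.11.15, pandas 2.3.3, numpy 2.4.6 and matplotlib 3.10.9. The fit was run on simulated data as a check of the code. The simulated arrays were drawn independently, without pairs, so the check does not cover the correlation of same-number arrays given below. A gene with several probe sets was represented by the brightest. Named were all members, every list gene that passed or, where fewer than 4 passed, the 4 with the smallest p, the 5 nearest genes to Mt1 and to Mt2, and 8 fixed cell markers, of which those needed are printed. Alternatives were a pseudocount of 1 or 150, no minimum or one of 500, quantile or median normalization, pairs or chip lot as a block, no variance trend, and each array left out. Deviations from the group mean correlated at 0.486, 0.357, 0.516 and 0.348 between same-number arrays over the probe sets, and at most at 0.0681 between others, so the numbers were taken as pairs. The number of arrays limits the precision.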

Additional observations from a re-analysis of the deposited data

Results flagged for a closer look

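Of 76 groups of 4 arrays checked for 38 genes, 3 held an array that stood apart, its gap to the nearest array taking a larger share of the group's log2 range than Dixon's 95% critical value. Chance flags about 1 in 20 groups. Mt3 was low on confluent replicate 1, at a signal of 668, with a gap of 0.854 of the range. Cdk1 was low on the same array, at 1378, with a gap of 0.975. Slc39a6 was low on subconfluent replicate 3, at 905, with a gap of 0.916.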

How the results depend on the processing

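Mt1 and Mt2 kept a negative difference under all 16 alternatives that gave a value. As their groups did not overlap, leaving out arrays, blocks, lots and pseudocounts could not turn the sign. Only quantile or median normalization could have, so the kept sign is no further evidence. Without 1 array the differences ran from -1.32 to -0.94 for Mt1 and from -1.77 to -1.11 for Mt2. Mt3 then ran from -0.36 to -0.05 and turned to 0.37 within chip lot A. Mtf1 ran from 0.35 to 0.73 and stood at 1.35 within lot A. The cause of these shifts was not tested. The minimum on signal does not change a member's difference.

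Probe sets called higher and lower numbered 165 and 244. With the replicate block, which pairs equal numbers, they were 597 and 679. The lot block, which takes its difference only from lots A and C, gave 368 higher, and dropping the minimum gave 72 and 136. Without 1 array they ran from 18 to 342 and from 80 to 345. Pathway list genes called higher numbered 7 and lower 9, against 18 and 16 with the replicate block. The lot block gave 20 higher, dropping the minimum 3, and without 1 array 1 to 17 were higher and 7 to 10 lower. For the 34 genes named from the lists 0 calls turned direction in 569 comparisons, 43 were lost and 21 gained. Where the replicate block changed the call of a gene named in the text, its blocked adjusted p stands beside it. With a minimum of 500 the median of the MTF1 targets was 0.54. By that minimum 0 iron handling genes were called, and 3 acute-phase and STAT3 targets fell. Of the NRF2 targets 2 rose and 3 fell, and 3 mitotic genes rose. The zinc and copper transport and glucocorticoid lists each kept 1 gene that rose. Centred on group means, 1 of the 5 genes nearest to Mt1 and 2 of the 5 nearest to Mt2 stayed among the nearest. Signals near the minimum, such as Mtf1's, are the least certain.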
